A study of Mus musculus with 2 samples.

Results

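The genes described here encode 10 steroid-converting dehydrogenases and reductases, measured in the prefrontal cortex (PFC) of mice with and without chronic mild stress (CMS). They were chosen by name, namely Hsd3b2, Hsd3b3, Hsd3b5, Hsd3b7, Akr1d1, Srd5a1, Akr1c6, Hsd17b13, Hsd11b1 and Hsd11b2, with their values on these arrays already known. They are 10 of the 37069 gene names on the array, and all 10 had at least 1 probe. The C group were male C57Bl/6 N sea mice given no treatment and kept in groups, and the CMS group were male mice of the same strain, housed singly and put through varied mild stressors for 4 weeks. Mice of both groups were 9 to 10 weeks old at the start. RNA of 7 mice, by the series' design text, was mixed into 1 pool for each group (the methods give a larger number of mice per group for arrays and PCR), and each pool was hybridized to 1 one-color Agilent array, so there are no replicates, single housing and the stressors cannot be told apart, and no test between the groups could be made. All differences below are descriptions of these 2 pools.

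Steroid hormones are made from cholesterol and then converted in the tissues where they act by enzymes that move hydrogen on and off single positions of the ring system. Hydroxysteroid dehydrogenases interconvert a hydroxyl and a keto group, whereas the 5-alpha- and 5-beta-reductases and the aldo-keto reductases saturate a double bond or reduce a keto group. In the brain these steps regenerate corticosterone from its inactive keto form and lead to neurosteroids, and in the liver they clear steroid hormones and shape bile acids. In tissue RNA, fewer cells of a type and less RNA per cell cannot be told apart.

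The 10 genes differed widely. Expression of Akr1c6 was 8.39-fold higher in the CMS pool. Hsd3b3 and Hsd3b5 were 12- and 10.7-fold higher. Their C signals were only 1.51 and 1.26 times the lowest signal that counted as well above background, and their ratios varied with the processing. Hsd3b2 was dim in the C pool, and its lower bound of 2.03-fold fell below 2-fold under some other processing. Hsd3b7 and Hsd11b1 were 1.37- and 1.38-fold higher, with log2 ratios of CMS over C of 0.45 and 0.46, and Srd5a1 had a log2 ratio of -0.02. Hsd17b13 gave different answers on its 2 probes. Akr1d1 and Hsd11b2 were not well above background in either pool. Of 30 hepatocyte markers 28 were more than 2-fold higher as well, with a median log2 ratio of 3.05, and the part of such cells in these values was not tested. The values chose these genes, so the counts describe them and support nothing further.

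Sequence before the transcription start was taken from RefSeq for the 4 genes whose chosen probe was more than 2-fold higher and, for contrast, for Srd5a1, whose signal hardly differed. The windows are the 250 bases before each start, written 5′ to 3′ on the strand of the gene. The capitals mark the longest run that Hsd3b3 and Hsd3b5 share, in Hsd3b2 a match to AGAACA, and in Akr1c6 a match to TATAAA.
Hsd3b3, GRCm38.p6 chr3:98762411-98762660, minus strand: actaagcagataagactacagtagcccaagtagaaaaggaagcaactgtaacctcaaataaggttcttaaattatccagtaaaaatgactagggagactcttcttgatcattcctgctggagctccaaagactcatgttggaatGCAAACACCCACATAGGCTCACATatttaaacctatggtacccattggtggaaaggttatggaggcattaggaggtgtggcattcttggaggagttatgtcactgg
Hsd3b5, GRCm38.p6 chr3:98645535-98645784, minus strand: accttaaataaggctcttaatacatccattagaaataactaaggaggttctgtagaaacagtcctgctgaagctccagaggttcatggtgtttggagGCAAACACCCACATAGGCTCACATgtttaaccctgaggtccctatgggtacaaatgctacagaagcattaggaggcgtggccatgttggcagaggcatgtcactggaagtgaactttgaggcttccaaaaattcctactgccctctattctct
Hsd3b2, GRCm38.p6 chr3:98724544-98724793, minus strand: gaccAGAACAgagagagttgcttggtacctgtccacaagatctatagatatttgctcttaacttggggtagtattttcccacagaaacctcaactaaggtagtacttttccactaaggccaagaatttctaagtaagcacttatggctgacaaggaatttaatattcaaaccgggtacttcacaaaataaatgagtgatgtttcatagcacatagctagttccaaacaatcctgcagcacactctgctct
Akr1c6, GRCm38.p6 chr13:4434093-4434342, plus strand: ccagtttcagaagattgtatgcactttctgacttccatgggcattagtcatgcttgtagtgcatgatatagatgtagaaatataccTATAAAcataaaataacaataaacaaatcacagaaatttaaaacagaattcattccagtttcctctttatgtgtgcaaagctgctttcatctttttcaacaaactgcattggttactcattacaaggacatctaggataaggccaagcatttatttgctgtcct
Srd5a1, GRCm38.p6 chr13:69611464-69611713, minus strand: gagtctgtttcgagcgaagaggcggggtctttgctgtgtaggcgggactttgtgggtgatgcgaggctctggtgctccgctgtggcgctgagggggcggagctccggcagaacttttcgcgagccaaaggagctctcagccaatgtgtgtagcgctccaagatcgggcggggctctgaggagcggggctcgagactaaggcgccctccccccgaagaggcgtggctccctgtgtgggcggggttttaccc

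RefSeq had a window for 9 of the 10 genes, all but Hsd11b2, and 2 windows for Hsd3b3, which share 248 of 250 bases and of which 1 is shown. The run of 24 bases common to Hsd3b3 and Hsd3b5 begins 106 bases before the Hsd3b3 start and 153 bases before the Hsd3b5 start. Among 32851 windows of this length it was held by 3, those of Hsd3b3 and Hsd3b5. A shared run was sought in this pair only. Aligned over the full windows, Hsd3b3 and Hsd3b5 shared 62.4% of bases, and pairs of different genes among the 9 ranged from 52.0% to 62.8%. Hsd3b5, Hsd3b2 and Hsd3b3 lie in 1 cluster with Hsd3b4, Hsd3b6 and Hsd3b1, and in the RefSeq order no other gene stands between Hsd3b2 and Hsd3b3. The GC content was 45.2% for Hsd3b5, 42.0% for Hsd3b3, 39.6% for Hsd3b2 and 34.0% for Akr1c6, against a median of 52.4% over all windows. It was 45.2% for Akr1d1, 44.8% for Hsd17b13, 54.4% for Hsd11b1, 58.0% for Hsd3b7 and 64.8% for Srd5a1. The Srd5a1 window held 20 CG dinucleotides, that of Hsd11b1 6 and that of Hsd17b13 3, and those of the other 6 genes, among them Hsd3b7 and Akr1d1, held 0 or 1.

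Both strands were searched for 5 motifs. Only exact matches to the letters given were counted, so other forms of these sites were not sought. The HNF4 site CAAAGTCCA was in none of the 10 windows and in 0.384% of all windows, and the palindromic HNF1 consensus was in none of the 10 and in 0.00913% of all. The nuclear receptor half-site AGGTCA was in 2 of the 10, those of Akr1d1 and Hsd17b13, and in 14.0% of all. The glucocorticoid receptor half-site AGAACA was in the Hsd3b2 window alone among the 10 and in 16.1% of all. TATAAA was in that of Akr1c6 and in 12.4% of all, and none of these motifs overlaps another in the windows shown. These matches describe letters only and say nothing of binding.

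On the arrays, 65.2% (C) and 65.9% (CMS) of 59305 spots stood well above background as the scanner software judged it, and none was saturated. Each array was scaled to a mean intensity of 2500. The dimmest probe that still counted as well above background then had a signal of 17.8 (C) or 17.6 (CMS), called the detection limit here. It is no strict cutoff, as some brighter probes were not well above background, such as that of Nr1h4 with 23.5 in the C pool. A probe that was not well above background in 1 pool was given this limit or its own signal, whichever was higher, and its fold change is taken as a lower bound. Such a bound leaves out the error of the signal in the other pool. Of 27117 gene names with a ratio, 2.58% were past 2-fold, 1.99% higher with CMS and 0.59% lower, and their median log2 ratio was -0.03. Of the 10 genes, 8 had a ratio, and 4 of these were more than 2-fold higher and 0 lower, with a median of 0.74. With the 25433 names well above background on both arrays alone, 1.33% were past 2-fold, 1.16% higher and 0.173% lower, and of the 10 genes 7 had a ratio and 3 were more than 2-fold higher. As the genes were chosen on this contrast, nothing is read from the difference. Unless marked as SD, the ± values of signals below are the software's error for 1 probe on 1 array. Those of log2 ratios combine these errors of both arrays. Neither covers the spread between mice.

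The 3-beta-hydroxysteroid dehydrogenases turn pregnenolone into progesterone and dehydroepiandrosterone into androstenedione. Hsd3b3 (NM_001161742), a form known from liver and kidney, had a scaled signal of 26.9 ± 5.32 for C and 323 ± 32.6 for CMS. This is a log2 ratio of 3.59 ± 0.32 and a 12-fold difference, and 0.0406% of gene names had a higher ratio. The C signal was only 1.51 times the detection limit, and the CMS signal was far above it.

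Hsd3b5 (NM_008295), which in the male mouse liver reduces 3-ketosteroids rather than forming them, had a signal of 22.5 ± 5.0 for C and 241 ± 24.5 for CMS. This is a log2 ratio of 3.42 ± 0.35 and a 10.7-fold difference, and 0.107% of gene names had a higher one. The C signal was again close to the detection limit, at 1.26 times it. The log2 ratios of Hsd3b3 and Hsd3b5 were 1.94 and 1.90 when median intensities were background-corrected by normexp, raised by an offset of 50 and quantile normalized. These choices were changed together, and an offset of 50 exceeds the C signals of both genes.

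Hsd3b2 (NM_153193) had 2 probes, both dim. The first had a signal of 13.8 ± 3.93 for C, not well above background, and 36.2 ± 5.11 in the CMS pool, well above it. This gives a difference of at least 2.03-fold (log2 ratio at least 1.02), which passed 2-fold narrowly and only through its signal in the CMS pool. The bound on the log2 ratio was 0.99 when the arrays were scaled to their medians and 0.99 with quantile normalization. It then fell just short of 2-fold. The bound was 0.85 without scaling and 0.49 with normexp, the offset and quantile normalization. A lower bound does not place the gene below 2-fold. The second probe had 12.5 ± 4.69 for C and 21.1 ± 5.01 for CMS, was not well above background in either, and has no ratio.

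The other Hsd3b genes named above for the cluster, Hsd3b1, Hsd3b4 and Hsd3b6, were not well above background in either pool. Hsd3b1, the form of adrenal and gonad, had a signal of 4.45 for C and 6.15 for CMS. Hsd3b4 had 14.8 and 17.9, and Hsd3b6, the form that the adrenal zona glomerulosa uses, had 4.59 and 5.29. The genes of the cluster are close copies, and the probe sequences were not used here, so a probe named for one may also read another.

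**Figure D1:**
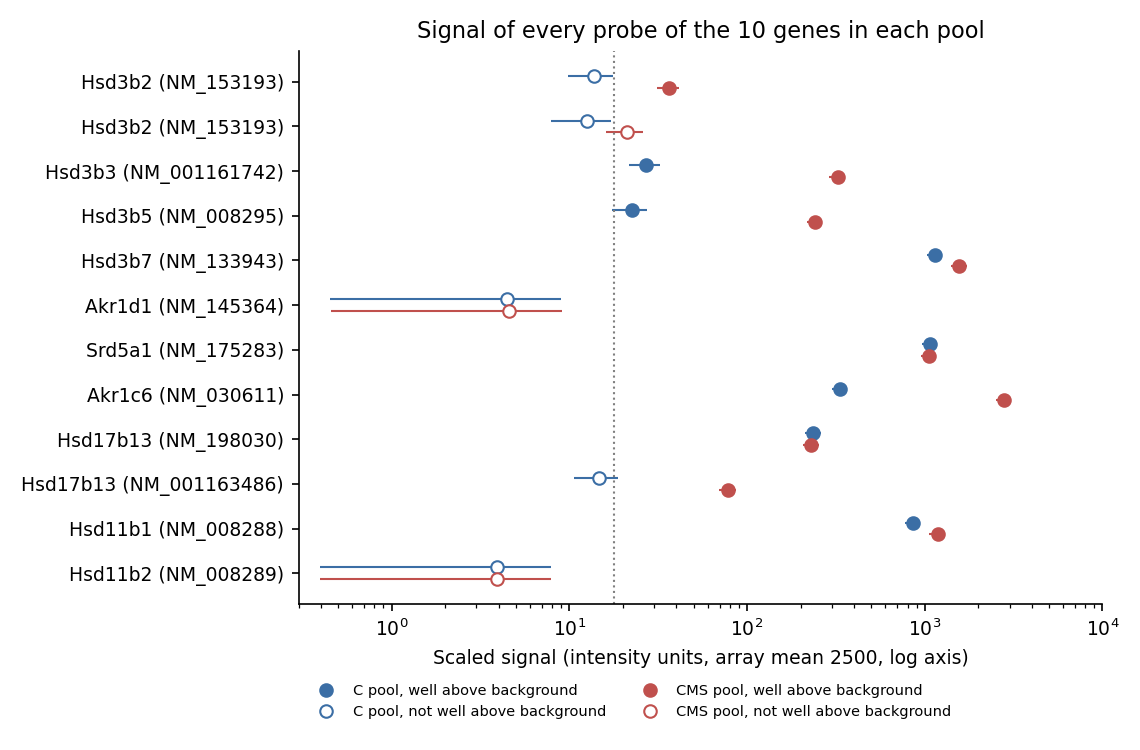
Scaled signal (log axis, intensity units) of each probe of the 10 genes in the C pool (blue) and the CMS pool (red), with 1 row per probe, open circles for probes not well above background, bars for the scanner software's error (cut at the left where the error is as large as the signal) and a dotted line at 17.8, the detection limit of the C array. The circles lie far apart for Hsd3b3, Hsd3b5, Akr1c6 and 1 probe of Hsd17b13, and on top of each other for Srd5a1, Akr1d1 and Hsd11b2.

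Akr1c6 (NM_030611) encodes the mouse 17-beta-hydroxysteroid dehydrogenase of the aldo-keto reductase family, which forms testosterone from androstenedione and is abundant in liver. Its signal was 333 ± 33.6 for C and 2789 ± 279 for CMS. This is a log2 ratio of 3.07 ± 0.21 and an 8.39-fold difference, and 0.321% of gene names had a higher one. The C signal was 18.7 times the detection limit, so both signals were clear of background. Its log2 ratio stayed between 2.87 and 3.09 under the 11 alternatives to the processing that were tried. Those that treat dim probes or average probes could not change it, as its only probe was well above background in both pools.

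Hsd17b13 encodes a dehydrogenase on the lipid droplets of hepatocytes. The probe of transcript NM_198030 had a signal of 236 ± 23.9 for C and 229 ± 23.2 for CMS, a log2 ratio of -0.04 ± 0.21. The probe of transcript NM_001163486 had 14.7 ± 4.04 for C, not well above background, and 77.9 ± 8.60 in the CMS pool. That is a difference of at least 4.38-fold, a log2 ratio of at least 2.13. The first probe lay in the middle of all gene names, with 53.0% of them above it, and the second near the top, with 0.848% above its bound. The first probe stands for the gene here because its mean log2 signal was higher, and the mean over both probes was a log2 ratio of 1.04. Whether both probes read Hsd17b13 RNA was not tested.

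The study's own tables of changed genes, drawn from these same arrays, name Hsd3b2, Hsd3b3, Hsd3b5, Akr1c6 and Hsd17b13, so these values are no independent evidence of a change in steroid enzymes.

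**Figure D2:**
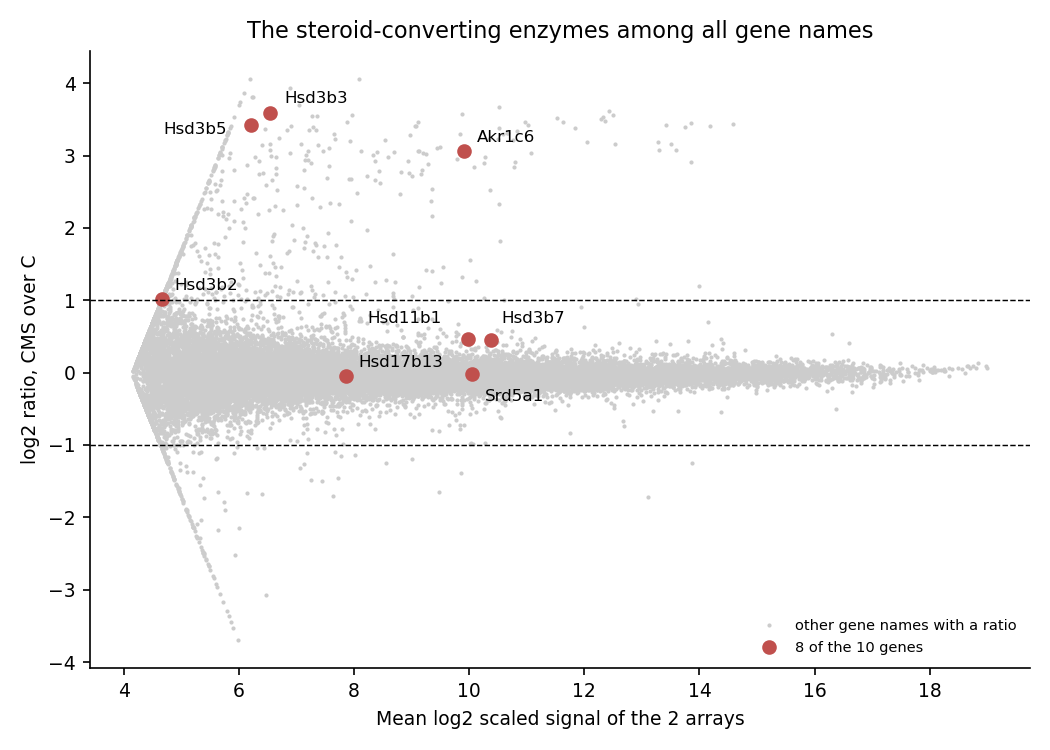
log2 ratio of CMS over C (vertical axis) against the mean log2 scaled signal of both arrays (horizontal axis) for 27117 gene names, in grey, and for the 8 of the 10 genes that have a ratio, in red, with dashed lines at 2-fold. Hsd3b3, Hsd3b5 and Akr1c6 lie at 3.07 to 3.59, Hsd3b2 lies on the edge that bounded ratios form at low signal, and the other 4 lie within or at the rim of the main band.

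Hsd11b1 regenerates active corticosterone from 11-dehydrocorticosterone, in the brain as in the liver. Its probe (NM_008288) was spotted 10 times on each array, and it alone of the 10 genes had more than 1 spot per probe. The lowest, median and highest spot had scaled signals of 777, 874 and 911 for C and of 1085, 1188 and 1244 for CMS. How many other probes with several spots separate in this way was not counted, so nothing particular to Hsd11b1 is read from it. The mean was 858 ± 49.2 (SD over 10 spots) for C and 1181 ± 53.1 for CMS. The log2 ratio within each spot position averaged 0.46 ± 0.05 (SD over 10 spots) and was above 0 at all 10.

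The spots share 1 pool of RNA, so their SD covers the error within the arrays only. Without scaling the processed signals were 911 to 1067 for C and 1127 to 1292 for CMS, and the mean log2 ratio was 0.29. Over all gene names 4.99% had a higher log2 ratio than Hsd11b1. H6pd, named after its value was seen, supplies the cofactor for this reaction inside the endoplasmic reticulum and had signals of 209 for C and 287 for CMS, a log2 ratio of 0.46.

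**Figure D3:**
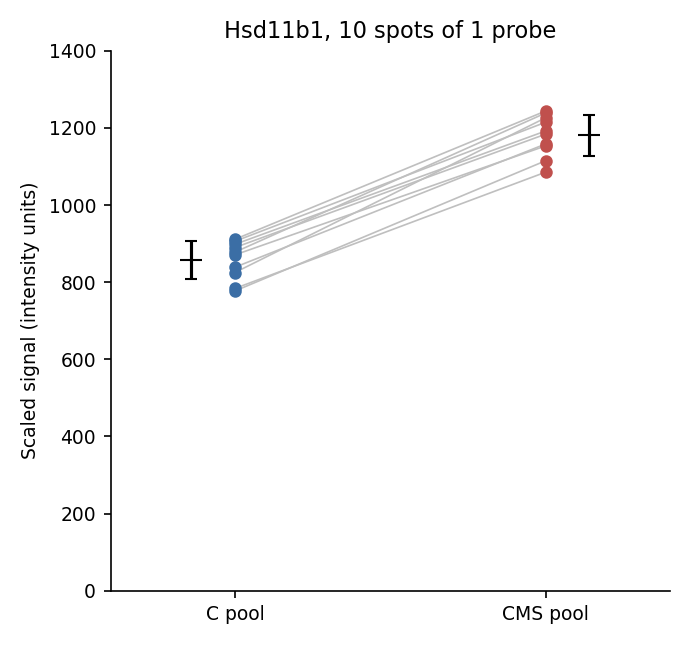
Scaled signal (intensity units, from 0) of the 10 spots of the Hsd11b1 probe in the C pool (blue) and the CMS pool (red), with grey lines joining the same spot position on both arrays and black bars for the mean and SD over spots. The spots lie between 777 and 911 for C and between 1085 and 1244 for CMS, and every line goes up.

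Hsd11b2, which inactivates corticosterone and guards the mineralocorticoid receptor in the kidney, had a signal of 3.94 ± 3.95 for C and 3.93 ± 3.94 for CMS. It was not well above background in either, and has no ratio. A ratio of the activating to the inactivating enzyme can therefore not be given.

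Hsd3b7 oxidizes 7-alpha-hydroxylated sterols on the way to bile acids and to other oxysterols. Its signal was 1142 ± 114 for C and 1565 ± 157 for CMS (NM_133943), a log2 ratio of 0.45 ± 0.20. Of all gene names 5.09% had a higher ratio, and the value rests on 1 spot per array. Akr1d1, the 5-beta-reductase of bile acid synthesis and steroid clearance, had 4.49 ± 4.5 for C and 4.57 ± 4.58 for CMS (NM_145364). Both values are as small as their error, so no level or difference was detectable at this signal.

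Srd5a1, the 5-alpha-reductase that makes dihydrotestosterone and starts the route from progesterone to allopregnanolone in the brain, had 1072 ± 107 for C and 1058 ± 106 for CMS (NM_175283). The log2 ratio was -0.02 ± 0.20, with 46.6% of gene names above it. The value was within the software's error of 0, and it ran from -0.19 to 0.02 under the alternatives, so no direction is given. Srd5a2, the form of the male reproductive tract, was not well above background in either pool, with 10.3 and 4.2.

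Other steroid genes were taken from lists of which 92 genes were on the array. Of 22 other hydroxysteroid dehydrogenases and related enzymes, 14 had a ratio, 2 were more than 2-fold higher and 0 lower, and the median log2 ratio was 0.01. Those higher were Rdh7, a short-chain dehydrogenase, with signals of 113 for C and 913 for CMS and a log2 ratio of 3.01, and Hsd17b2, which inactivates estradiol and testosterone, with 35.8, 125 and 1.81. The study names Hsd17b2 among its changed genes as well. Hsd17b10, a mitochondrial enzyme, had a log2 ratio of 0.07.

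Of 16 other aldo-keto reductases and 5-alpha-reductases, 12 had a ratio and 4 were more than 2-fold higher, all of them close relatives of Akr1c6. Akr1c13 had a log2 ratio of 1.69, with signals of 65.0 for C and 209 for CMS. Akr1c14, which forms 3-alpha-reduced neurosteroids, had 28.6 and 86.7, a log2 ratio of 1.60. Akr1c12 was at least 5.28-fold and Akr1c19 at least 3.90-fold higher, as both were dim in the C pool. These genes too are close copies whose probes may read one another. Akr1c18, which breaks down progesterone, had a log2 ratio of -0.24, and the median of the list was -0.01, with Akr1a1 at 0.01.

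The genes that make steroids from cholesterol had log2 ratios near 0. Of 13 on the array 11 had a ratio, 0 were past 2-fold in either direction, and the values ran from -0.17 to 0.29. Star, which brings cholesterol into mitochondria, was at -0.13, Cyp11a1, which cuts its side chain, at 0.09, and Cyb5a at 0.12. Of 11 receptors and binding proteins, 10 had a ratio and 1 was more than 2-fold higher. That gene was Serpina6, the corticosteroid-binding globulin that the liver secretes, with 20.5 for C and 130 for CMS, a log2 ratio of 2.67. The glucocorticoid receptor Nr3c1 was at -0.03.

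Steroid conjugation genes had the highest median of the 6 lists. Of 16 on the array 12 had a ratio, 7 of these were more than 2-fold higher and 0 lower, and the median log2 ratio was 1.19. As 5 of the 12 ratios are lower bounds, this median depends on their treatment. It was 2.59 with no bound, 2.42 with only the probes well above background in both pools, and 0.68 with normexp, the offset and quantile normalization. Among the glucuronosyltransferases, which make steroids water-soluble, Ugt2b34 was at least 10.5-fold higher, and Ugt2b5, Ugt2b38 and Ugt2b36 had log2 ratios of 3.24, 3.11 and 2.98. The Ugt2b genes are close copies as well. Sult1a1, a sulfotransferase, was at 0.33.

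Of 14 genes of bile acid synthesis, 11 had a ratio and 4 were more than 2-fold higher, with a median of 0.08. Acox2, a peroxisomal oxidase of the side chain, had a log2 ratio of 2.76, Slc27a5, which activates bile acids, 2.38 and Slc27a2 1.06, and Cyp27a1 was at least 2.05-fold higher. Scp2 was at 0.19. Cyp7a1, the first enzyme of the main pathway in liver, had signals of 4.10 for C and 7.26 for CMS, and Cyp8b1 had 4.17 and 4.14. Neither was well above background in either pool.

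**Figure D4:**
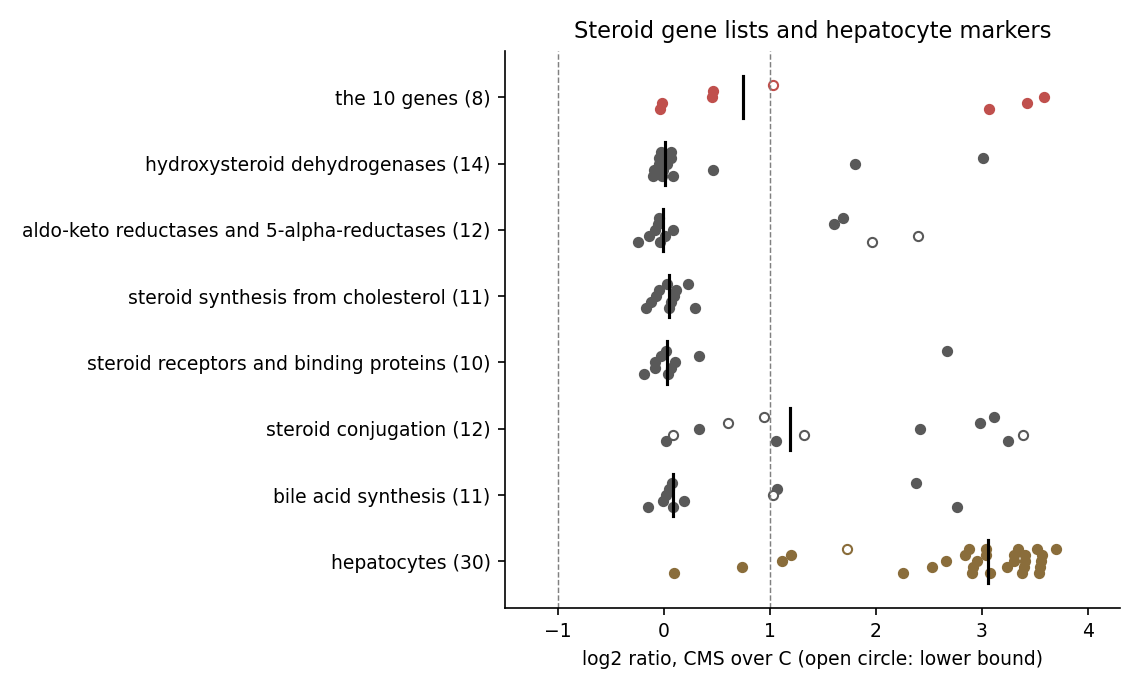
log2 ratio of CMS over C for the genes with a ratio (number in brackets) in the 10 genes, in 6 lists of other steroid genes and among hepatocyte markers, with 1 circle per gene, open where the ratio is a lower bound, black bars at the medians and dashed lines at 2-fold. Most genes of the lists sit near 0 with a few far to the right, the steroid conjugation genes spread from 0.02 to 3.39, and the hepatocyte markers sit around a median of 3.05.

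Of the marker lists of cell types, that of hepatocytes had the highest median ratio. All 30 hepatocyte markers stood well above background with CMS and 29 with C, 28 had a ratio above 2-fold, their median log2 ratio was 3.05, and their summed signal was 526288 for C and 685561 for CMS. Of this sum the brighter probe of Slc10a1 alone made up 501222 and 534088. That probe had a log2 ratio of 0.09, and the other probe of Slc10a1 gave 1.02. Of 8 Kupffer cell markers 6 had a ratio, with a median of 0.47 and a sum of 378 and 541, and of 8 sinusoidal endothelium markers 7 had one, with a median of 0.13 and a sum of 1093 and 1176. Timd4 and Cd163 of the Kupffer cell list and Dnase1l3 of the endothelium list were not well above background in either pool. The 5 red blood cell markers with a ratio had log2 ratios of 0.41 to 0.62, a median of 0.42 and a sum of 110682 and 146933. The Kupffer cell and red blood cell medians were both close to the values of Hsd11b1 and Hsd3b7. The part of these cells in the values of the 10 genes was not tested.

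Markers of other steroid-making or steroid-clearing tissue were not past 2-fold. Of 7 markers of adrenal cortex and gonad on the array 3 had a ratio, with a median of 0.09, and Mc2r, Cyp11b1, Cyp11b2 and Lhcgr were not well above background in either pool. Of 10 kidney proximal tubule markers 6 had a ratio, with a median of -0.13, and the 10 choroid plexus markers had a median of 0.10. All 44 markers of neurons, astrocytes, oligodendrocytes, microglia and brain endothelium were well above background in both pools. Of these 0 were past 2-fold, with list medians from -0.15 to 0.05. The pools thus carry markers of the brain cell types that the labelled tissue should hold, and the brain region was not tested.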

How the data were processed

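Pooled PFC RNA, 1 pool a group, was hybridized to SurePrint G3 mouse arrays on 1 slide. Intensities were deposited by the authors as processed signals of Agilent Feature Extraction 10.10.1.1, linear in scale, after the software's background subtraction and detrending, with an error for each spot. A second table the authors deposited holds the same intensities times 1 factor per array, 1.80 (C) and 2.05 (CMS), with column medians of 149 and 153. Control spots and outlier spots (130 and 133) were left out and spots of 1 probe averaged. A probe counted as well above background if a share of 0.5 or more of its spots did. Accessions were named, without versions, through the RefSeq table of GRCm38.p6, which named 30740 of 59305 spots. The array design names another build, so no gene coordinates are given, and promoter coordinates are those of RefSeq. Where a gene had several probes the brightest by mean log2 signal stood for it, and log2 ratios of CMS over C were taken here.

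The genes, the lists and the tests were chosen with earlier results of these data known. Genes named from the lists are the 4 past 2-fold with the largest ratio in each direction and the one with the highest mean log2 signal. Others (H6pd, Akr1c18, Star, Cyp11a1, Srd5a2, the other Hsd3b genes, Cyp7a1, Cyp8b1) were named after their values were seen. The number of arrays limits the precision. Among spots of the same probe the SD of the log2 ratio was 0.13 (314 probes). Alternatives were other scalings, quantile normalization, normexp with an offset of 50 on median intensities, the deposited table, other treatments of dim probes, outlier spots kept and the mean of all probes. The work used R 4.3.3, limma 3.58.1, Python 3.11.15, pandas 2.3.3 and numpy 2.4.6.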

Additional observations from a re-analysis of the deposited data

How the results depend on the processing

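With 1 array per group no replicate could be left out, no slide effect fitted and no test made. No paired analysis was possible because each group is a single array. Of 395 values compared over 11 alternatives, 335 stayed within the SD of spots (0.13), within 1.5 times for counts or within 10 percentage points for shares, and 60 did not. Medians of the 10 genes below are over those with a ratio, 8 of them unless another number is given. The number of the 10 genes more than 2-fold higher was 3 to 5. It was 3 with median scaling, no scaling, quantile normalization, normexp, and when probes dim on either array were left out, and 5 when probes were averaged. Low signal limits Hsd3b2, Hsd3b3 and Hsd3b5. Unless the setting itself gives the cause, the cause was not tested.

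Without scaling, the median over all genes was -0.20 in place of -0.03, which the setting itself brings about. Then Hsd3b2 was 0.85, Hsd3b3 3.41, Hsd3b5 3.25, Hsd3b7 0.28, Srd5a1 -0.19, Akr1c6 2.89, Hsd17b13 -0.21 and Hsd11b1 0.29, the median of the 10 genes 0.57, the number of all genes lower 256 (160 with scaling) and the higher share of called genes 62.9% (77.1% with scaling). The list medians were then -0.17 for hydroxysteroid dehydrogenases, -0.19 for aldo-keto reductases, -0.13 for steroid synthesis, -0.15 for receptors, -0.091 for bile acid synthesis, 2.88 for hepatocytes, 0.30 for Kupffer cells, -0.046 for sinusoidal endothelium, -0.081 for adrenal cortex, -0.30 for kidney, -0.077 for choroid plexus, -0.21 for neurons, -0.21 for astrocytes, -0.33 for oligodendrocytes, -0.12 for microglia, -0.26 for brain endothelium and 0.24 for red blood cells.

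Under normexp, Hsd3b2 was 0.49, Hsd3b3 1.94, Hsd3b5 1.90, Akr1c6 2.87, the median of the 10 genes 0.48, that of steroid conjugation 0.68, of hepatocytes 2.58 and of Kupffer cells 0.23. All genes past 2-fold were then 303 (699 in the report), with 265 higher, 38 lower and a share higher of 87.5%. With no bound for dim probes, Hsd3b2 was 1.39, the median of the 10 genes 0.93, steroid conjugation 2.59, and 1090 genes were past 2-fold, 315 of them lower. When probes dim on either array were left out, the median over the 7 of the 10 genes with a ratio was 0.46 and steroid conjugation 2.42. Past 2-fold were then 338 genes, 294 higher and 44 lower. With no filter, all 10 genes had a ratio. Hsd3b2 was then 1.39, the median of the 10 genes 0.46, steroid conjugation 2.05, and 2562 genes were past 2-fold, 1493 higher and 1069 lower, a share higher of 58.3%. With the mean of all probes, Hsd17b13 was 1.04 and the median of the 10 genes 1.03.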
